A study of Mus musculus with 5 samples.

Results

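Steroidogenic genes encode the machinery that turns cholesterol into steroid hormones, and 10 of them were examined here in newborn mouse ovaries with and without Lhx8: Star, Cyp11a1, Cyp17a1, Hsd3b1, Cyp19a1, Hsd17b1, Nr5a1, Fdx1, Scarb1 and Lhcgr. Members were all array probe sets, dim ones included, whose only gene symbol was one of these names. The rule found 15 probe sets of 8 genes, out of 18193 genes with such a probe set. Cyp19a1, which encodes the aromatase that makes oestrogens, and Lhcgr, which encodes the receptor for luteinising hormone, matched no such probe set and were not analysed here.

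In steroid-making cells cholesterol enters through receptors such as SR-B1 (Scarb1), and the STAR protein moves it into mitochondria. There CYP11A1, fed with electrons by ferredoxin (Fdx1), cuts the side chain to give pregnenolone, which 3-beta-hydroxysteroid dehydrogenase (Hsd3b1) turns into progesterone. CYP17A1, HSD17B1 and aromatase carry the path on to androgens and oestrogens, and the nuclear receptor SF-1 (Nr5a1) switches on many of these genes. Around birth the mouse ovary is breaking up its germ cell cysts into primordial follicles, and theca cells, the androgen makers of the adult ovary, have not yet formed.

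Expression was read on 5 Affymetrix arrays, 3 from Lhx8 null ovaries (replicates 1, 2 and 3) and 2 from wild type ovaries (replicates 2 and 3). All animals were females of a C57/BL6/129SVEV hybrid background at 0.5 days after birth, and each array carried RNA pooled from 50 ovaries, so a replicate is a pool. Nothing beyond the word null describes the allele in the labels, and wild type pools of the same background served as controls. Lhx8, a homeobox gene of oocytes, averaged 280 ± 105 (SD, n = 3) on null arrays and 5840 ± 868 (SD, n = 2) on wild type arrays, in the direction the labels give.

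Values are deposited signals on a linear scale, and differences are null minus wild type on the scale log2(signal + 16) after quantile normalisation. A probe set is called dim here if its mean over the arrays lies below the cutoff of 7.37 on that scale, a signal of about 150. A change counts as past the threshold at a Benjamini-Hochberg adjusted p below 0.05 in limma (two-sided), adjusted over all 45037 probe sets. In whole ovary RNA, fewer cells of a type and less RNA per cell cannot be told apart.

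The arrays of the groups also differed in other ways. Null arrays were brighter for the hybridisation controls BioC (2.12 times) and Cre (1.9 times) and for 18S ribosomal RNA (1.9 times), with no overlap between groups. The ratio of 3' to 5' signal of Actb ran from 1.48 to 1.69 on null arrays and from 1.39 to 1.43 on wild type arrays, while that of Gapdh overlapped. The ovarian markers were present: the pregranulosa gene Foxl2 read 4462.1 to 5688.8 in wild type and 1714.2 to 2304.9 in null pools, and the germ cell gene Ddx4 3048.5 to 3379.6 and 381.9 to 616.7. Of 8 germ cell markers 8 fell, and 6 of 7 tract epithelium and 6 of 8 stroma markers rose. The part of these shifts in the results on steroidogenic genes was not tested.

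Steroidogenic genes moved both ways. By the brightest probe set of each gene, Nr5a1 and Hsd3b1 fell by more than 2-fold, Fdx1 rose by 0.48 on the log2 scale, and Star, Cyp11a1, Cyp17a1, Hsd17b1 and Scarb1 did not pass. Of the 15 probe sets, 2 were lower and 2 higher, against 21% of all probe sets called in either direction. The shares over all probe sets were 10.3% for lower and 10.7% for higher. The 4 calls lay among the 7 probe sets that were not dim, a class in which 37% of probe sets passed. None of the 8 dim member probe sets passed in limma (1 had an unadjusted p below 0.05), and 8.33% of all dim probe sets did. For 11 of the 15 the readings of the groups did not overlap after normalisation, as was so for 49.5% of all probe sets.

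**Figure D1:**
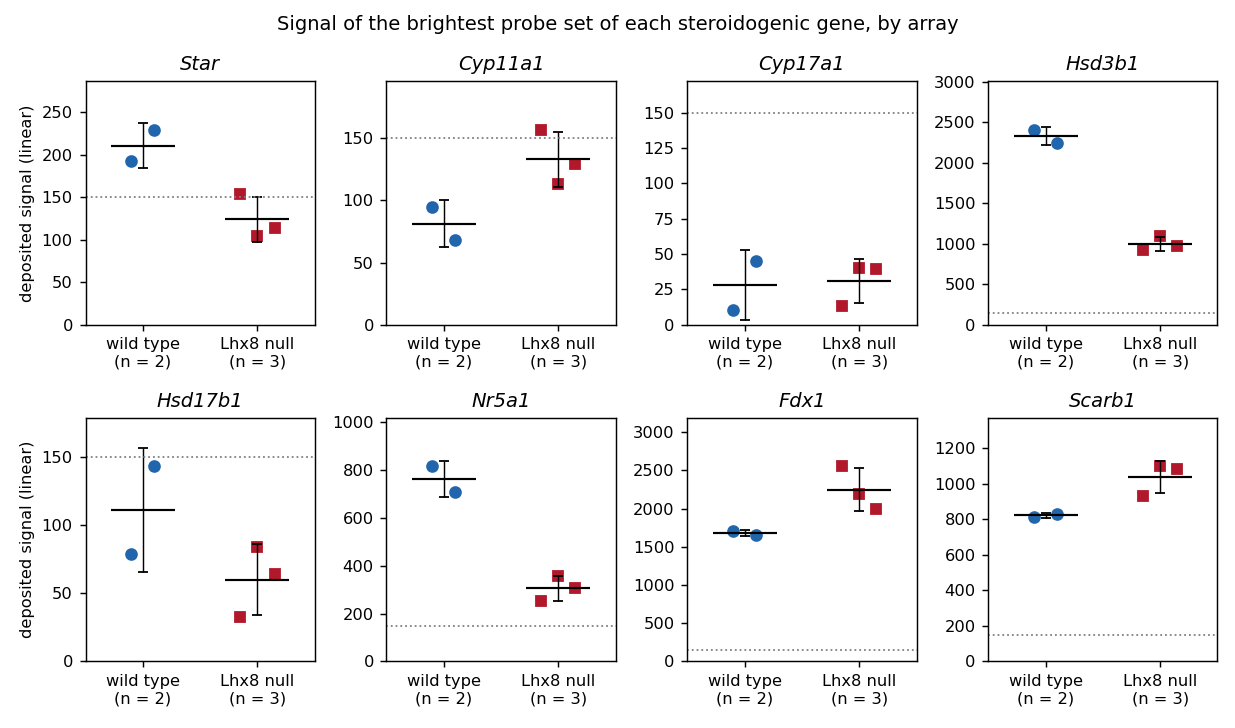
Deposited signal (linear, from 0) of the brightest probe set of each of the 8 genes, on 2 wild type arrays (blue circles) and 3 Lhx8 null arrays (red squares); black bars are means with SD, and the dotted line marks a signal of 150, about the cutoff for dim probe sets. Hsd3b1 and Nr5a1 are lower on every null array, Fdx1 is higher, and the points of Cyp17a1 overlap far below the line.

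The fall of Nr5a1, the nuclear receptor gene that also shapes gonad and adrenal formation, was the largest among members that passed. Its brighter probe set (1418315_at) read 252.5, 358.8 and 307.3 on null arrays 1, 2 and 3, and 815.8 and 710.1 on wild type arrays 2 and 3. Every null pool lay below both wild type pools, and the gap between the group means exceeded the spread among pools. The difference was -1.33 on the log2 scale (SE 0.22, adjusted p = 0.00395), a wild type level 2.51 times that of null pools. The call was lost without wild type replicate 2 (adjusted p = 0.0561), where the difference was -1.23. A dim second probe set (1421730_at), with signals of 1.9 to 36.4, gave 0.41 (SE 0.44, adjusted p = 0.569), and its groups overlapped. With both averaged, Nr5a1 stood at -0.46 (adjusted p = 0.266).

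Scarb1, which encodes a receptor that takes up cholesterol from high density lipoprotein, had 3 probe sets, all with differences above 0. Null pools are given in the order 1, 2, 3 and wild type pools in the order 2, 3. Its probe set 1437378_x_at read 934.7, 1098.6 and 1085.8 in the null pools, with 813.3 and 831.4 in wild type. A second, 1455820_x_at, read 1064.8, 989.1 and 1019.8 against 818.2 and 705.0. On both, each null pool lay above each wild type pool, by a small margin. The differences were 0.36 (SE 0.14, adjusted p = 0.109) and 0.45 (SE 0.13, adjusted p = 0.0429), so that 1 passed. The third, 1416050_a_at, gave 0.22 (SE 0.15, adjusted p = 0.343), and -0.04 with arrays centred on their medians. The names of the first pair end in x, Affymetrix's mark for probes that can match other transcripts too. The call of 1455820_x_at was lost without null replicate 2 or 3 or wild type replicate 2 or 3 (adjusted p = 0.102, 0.111, 0.0915 and 0.224). With arrays centred on their medians it stood at 0.18 (adjusted p = 0.462), and it passed in 4 of 14 other settings.

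Star, whose product carries cholesterol to the inner mitochondrial membrane, lay at the edge of the threshold. Its brightest probe set (1418729_at) read 154.2, 104.6 and 114.1 on null arrays 1, 2 and 3 and 192.3 and 229.6 on wild type arrays 2 and 3. All null pools were below both wild type pools. The difference was -0.90 (SE 0.27, adjusted p = 0.0507), with a 95% interval from -1.52 to -0.27. Both other probe sets were dim: 1449201_at gave -1.03 (SE 0.33, adjusted p = 0.0608) with no overlap between groups, and 1418728_at gave -0.50 (SE 0.37, adjusted p = 0.405) with overlap. The brightest probe set passed in 10 of 16 other settings. In 2 of these dim probe sets were left out, a limit that Star cleared only through its wild type level (7.92 on the log2 scale, with 7.02 in null pools and the cutoff at 7.37), so its calls there are no support. It passed without null replicate 1, the array with the highest null reading (adjusted p = 0.0325), and not when any other array was left out.

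Cyp11a1, the side-chain cleavage enzyme that commits cholesterol to steroids, was dim on all 3 probe sets. The brightest (1448804_at) read 156.8, 113.0 and 129.5 in the null pools, with 94.8 and 68.0 in wild type, and every null pool was above both wild type pools. It gave 0.38 (SE 0.31, adjusted p = 0.458). A second (1439947_at) went the other way, from 84.0 and 80.4 on wild type arrays to 62.3, 64.6 and 54.2 on null arrays, and gave -0.60 (SE 0.34, adjusted p = 0.264). The groups did not overlap on either probe set. The third (1457604_x_at), at 25.7 or below on all arrays, gave -0.27 (SE 0.42). No direction can be given for Cyp11a1 from these probe sets, and the 95% interval of the brightest ran from -0.34 to 1.10.

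Fdx1, the ferredoxin that passes electrons to mitochondrial P450 enzymes, was the member gene that rose. It read 2552.0, 2197.0 and 1999.6 on null arrays 1, 2 and 3, and 1707.2 and 1652.5 on wild type arrays 2 and 3. The groups did not overlap, and the null pools spread more widely (SD 280) than the wild type pools (SD 38.7). The difference was 0.48 (SE 0.14, adjusted p = 0.039), 1.39 times the wild type level. The call was lost without null replicate 2 (adjusted p = 0.0973), wild type replicate 2 (adjusted p = 0.14) or wild type replicate 3 (adjusted p = 0.188). It was lost with the deposited scaling (0.41, adjusted p = 0.0605) and with arrays centred on their medians (0.16, adjusted p = 0.443), and without a variance trend (adjusted p = 0.168). The median of all probe sets was 0.11 and -0.13 in those settings, and relative to it Fdx1 stood at 0.30 in both.

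Hsd3b1, which makes progesterone from pregnenolone, had the smallest p of all members. It read 922.4, 1091.5 and 974.9 on null arrays 1, 2 and 3, against 2406.1 and 2246.4 on wild type arrays 2 and 3. Null pools averaged 996 ± 86.6 (SD, n = 3) and wild type pools 2330 ± 113 (SD, n = 2), so the gap was many times the spread within either group. The difference was -1.17 (SE 0.13, adjusted p = 0.000687), a wild type level 2.24 times that of null pools. The call held in all 16 other settings, with differences from -1.46 to -1.10. Its probe set (1448453_at) was the only one for Hsd3b1, whose relatives are close in sequence, and how far it reads them was not tested. The probe sets of Hsd3b2 and Hsd3b3 were dim and gave 0.74 (adjusted p = 0.243) and 0.57 (adjusted p = 0.424), and Hsd3b7, an enzyme of bile acid synthesis, gave -0.40 (adjusted p = 0.0891).

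**Figure D2:**
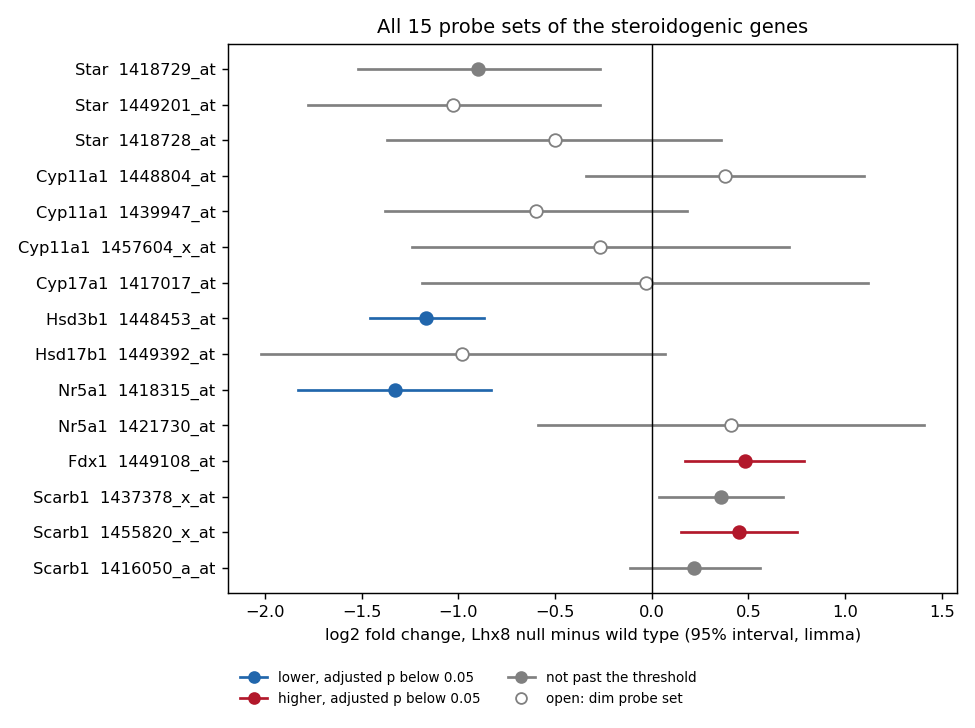
Log2 fold change (null minus wild type, points) with its 95% interval (lines) for all 15 probe sets of the 8 genes, from limma over 3 null and 2 wild type arrays; blue and red mark probe sets past the threshold, and open points are dim. The 2 lower calls are Hsd3b1 and 1 of 2 Nr5a1 probe sets, the 2 higher calls are Fdx1 and 1 of 3 Scarb1 probe sets, and probe sets of Cyp11a1 and Nr5a1 lie on both sides of 0.

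The measured members that lead to androgens and oestrogens, Cyp17a1 and Hsd17b1, were dim. Cyp17a1, the hydroxylase and lyase of androgen synthesis, read 13.3, 40.4 and 39.2 in the null pools, with 10.5 and 45.4 in wild type. The groups overlapped and the difference was -0.03 (SE 0.50, adjusted p = 0.975), with a 95% interval from -1.19 to 1.12. Changes of up to 2-fold either way lie within that interval and are not excluded. Hsd17b1, which turns oestrone into oestradiol, read 32.5, 83.8 and 64.1 in the null pools, with 78.9 and 143.3 in wild type. Null replicate 2 lay above wild type replicate 2 in deposited signal, though not after normalisation. The difference was -0.98 (SE 0.45, adjusted p = 0.177).

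Promoter sequences are shown for Hsd3b1 and Fdx1, the member with the smallest p among the falls and the member gene that rose at its brightest probe set. Each is the 250 bases before the gene's start in RefSeq, build GRCm38.p6, where 5 of the 10 genes had an entry; both lie on the minus strand and are printed 5' to 3' along the gene. Hsd3b1 covers chr3:98859795-98860044 and Fdx1 chr9:51963603-51963852, and capitals mark a match to any of the motifs searched.
Hsd3b1: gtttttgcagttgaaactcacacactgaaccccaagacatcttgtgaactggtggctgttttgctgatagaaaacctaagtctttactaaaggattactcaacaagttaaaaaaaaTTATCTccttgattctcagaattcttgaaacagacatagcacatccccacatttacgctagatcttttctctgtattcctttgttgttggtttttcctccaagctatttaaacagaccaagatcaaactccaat
Fdx1: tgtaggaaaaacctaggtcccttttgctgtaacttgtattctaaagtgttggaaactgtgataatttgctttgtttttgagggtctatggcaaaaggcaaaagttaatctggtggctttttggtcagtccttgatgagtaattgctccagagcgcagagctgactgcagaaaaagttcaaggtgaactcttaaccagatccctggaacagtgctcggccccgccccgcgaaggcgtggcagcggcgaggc
Both strands were searched for CAAGGNCA, a core of the element bound by SF-1, for the GATA-factor core AGATAA and for TATAAA; none of these letter strings contains another. Hsd3b1 held 1 match, to AGATAA on the opposite strand, from -134 to -129, and Fdx1 held none. Among 32851 promoter windows of this length, 5.53% held CAAGGNCA, 9.99% AGATAA and 12.4% TATAAA. The 8 windows of the 5 members held no CAAGGNCA. A match is a string of letters and not a measured site.

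The wider pathway was read from lists drawn from general knowledge, but chosen with earlier results of these data known. Each gene was taken at its brightest probe set, and a few genes stand in more than 1 list. Over all 18193 genes the median log2 fold change was -0.02, and 27.5% of genes were called, 14% higher and 13.6% lower. Calls were more frequent among the 10916 genes that were not dim, with 2261 higher, 2026 lower and a median of 0.04. Most pathway genes, 58 of 73, were not dim, so the share over all genes is a low baseline for them. For the 8 members the median was -0.46, but it depended on what was counted. It was -0.27 over all 15 member probe sets and 0.22 over the 7 that were not dim. Over the 5 member genes that were not dim it was -0.9.

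Genes of cholesterol supply showed small changes. Of 11 measured, 4 rose and 1 fell, with a median of 0.26. Lipa, the lysosomal lipase, rose by 0.71 (SE 0.16, adjusted p = 0.0159), Stard4, a cholesterol carrier, by 0.63 (SE 0.16), Tspo, an outer mitochondrial membrane protein, by 0.59 (SE 0.17) and Npc2 by 0.49 (SE 0.14). Npc1, which works with NPC2 to export cholesterol from lysosomes, fell by 0.67 (SE 0.18, adjusted p = 0.0307). It read 362.8, 373.4 and 330.6 in the null pools, with 623.7 and 494.1 in wild type, without overlap. None of the 4 rises passed with arrays centred on their medians, without a variance trend, without null replicate 2 or without wild type replicate 2. Without null replicate 3 and without wild type replicate 3, 2 and 1 passed. The balance turned to lower with arrays centred on their medians (0 higher, 3 lower) and with probe sets averaged (2 higher, 3 lower). Abca1, a cholesterol exporter, then stood at -0.69 (adjusted p = 0.0183) and -1.12 (adjusted p = 0.000973), and Acbd3 at -0.58 (adjusted p = 0.0305) and -0.52 (adjusted p = 0.0295), from -0.40 and -0.28 without a call. Npc1 passed with arrays centred on their medians (-0.87, adjusted p = 0.0116) but not without a variance trend, nor when any array but null replicate 1 was left out.

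Of 4 redox partners measured, 2 rose and none fell. Cyb5r3, the reductase of cytochrome b5, rose by 1.06 (SE 0.10, adjusted p = 0.000385), from 2902.0 and 3146.9 on wild type arrays to 6282.8, 6580.8 and 6098.5 on null arrays. Cyb5b, the mitochondrial cytochrome b5, rose by 0.78 (SE 0.10, adjusted p = 0.00157). Both calls held with each array left out, but with probe sets averaged Cyb5b stood at 0.16 (adjusted p = 0.371) and Cyb5r3 at 0.54 (adjusted p = 0.0307), and Cyb5b stood at 0.47 (adjusted p = 0.0448) with arrays centred on their medians. Cyb5a, which aids the lyase step of CYP17A1, gave -0.34 (SE 0.17, adjusted p = 0.198), and wild type replicate 3 stood apart at 7685.1 while the other 4 arrays ran from 5068.7 to 5274.5. Without wild type replicate 2 Cyb5a passed as lower (-0.66, adjusted p = 0.0252).

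Other steroid enzymes went both ways, with 2 of 20 higher, 3 lower and a median of -0.27. Akr1c14, a 3-alpha-hydroxysteroid dehydrogenase that reduces dihydrotestosterone and dihydroprogesterone, read 1277.3, 1796.4 and 1843.6 in the null pools, with 5344.9 and 5465.5 in wild type. All null pools were far below the wild type pools, and it fell by 1.72 (SE 0.17, adjusted p = 0.000395), a call that held with each array left out. Hsd17b11 rose by 1.09 (SE 0.15, adjusted p = 0.00178), also with each array left out, and Hsd11b2, which inactivates glucocorticoids, rose by 0.63 (SE 0.14, adjusted p = 0.0167). Cyp1b1, which hydroxylates oestrogens, fell by 0.53 (SE 0.14, adjusted p = 0.0313). Hsd17b2, which oxidises oestradiol, was dim on all arrays and passed as lower (adjusted p = 0.0263), with 94.6 and 94.2 on wild type arrays and 49.1, 4.5 and 2.1 on null arrays. Its size rests on the constant added before the logarithm, at -3.59 with 1 and -1.12 with 64, and no fold can be given. The last 3 calls were each lost without at least 1 array: Hsd11b2 without null replicate 2 or wild type replicate 3, Cyp1b1 without null replicate 3 or either wild type array, and Hsd17b2 when any array but null replicate 1 was left out. With arrays centred on their medians Hsd11b2 did not pass either (0.37, adjusted p = 0.149), while Cyp1b1 stood at -0.83 (adjusted p = 0.00895). Cyp1b1 did not pass with its probe sets averaged (-0.49, adjusted p = 0.1).

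Regulators of steroid genes included falls of the same order as that of Nr5a1. Of 22 measured, 5 fell and 4 rose, with a median of -0.03. Nr0b1 (DAX1), a nuclear receptor that represses SF-1, fell by 1.68 (SE 0.22, adjusted p = 0.00134), from 494.1 and 429.1 on wild type arrays to 148.1, 140.9 and 144.9 on null arrays. Foxl2 fell by 1.35 (SE 0.17), Gata4, a GATA factor of gonadal somatic cells, by 1.31 (SE 0.20), Lhx9, a LIM homeobox gene of the early gonad, by 1.13 (SE 0.18) and Nr5a2, the closest relative of Nr5a1, by 1.01 (SE 0.18). The rises were those of Nr2f1 (2.12, SE 0.23, adjusted p = 0.000618) and Nr2f2 (1.10, SE 0.23), orphan nuclear receptors of mesenchyme, and of Sp1 (0.66, SE 0.11) and Creb1 (0.77, SE 0.16). All 5 falls passed with arrays centred on their medians, as did the rises of Nr2f1 and Nr2f2. Sp1 (0.37, adjusted p = 0.131) and Creb1 (0.46, adjusted p = 0.105) did not, and with probe sets averaged Sp1 stood at 0.18 (adjusted p = 0.394), Creb1 at -0.08 and Nr2f2 at 0.67 (adjusted p = 0.022). The call of Nr5a2 was lost without wild type replicate 3, that of Creb1 without wild type replicate 2 and that of Nr2f2 without either wild type array. Gata6 and Wt1 gave 0.09 and -0.13 and did not pass.

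Of 16 genes of gonadotropin and cyclic AMP signalling, 2 rose and 2 fell, with a median of -0.19. With arrays centred on their medians 1 rose and 5 fell, and among the 12 that were not dim, tested without dim probe sets, 3 rose and 5 fell. The added falls in both were those of Prkar1a, Prkacb and Prkar2b, subunits of protein kinase A, at -0.33, -0.34 and -0.52 in the analysis as reported (adjusted p = 0.0568, 0.0583 and 0.0694). The phosphodiesterase genes Pde8b and Pde8a, whose enzymes break down cyclic AMP, fell by 1.26 (SE 0.23, adjusted p = 0.006) and 0.84 (SE 0.18, adjusted p = 0.0121). Adcy6, an adenylyl cyclase, rose by 1.00 (SE 0.17, adjusted p = 0.00426) and Gnas, the stimulatory G protein subunit, by 0.47 (SE 0.13, adjusted p = 0.0362). Pde8a and Adcy6 lost their calls without wild type replicate 2, Pde8b without either wild type array, and Gnas when any array but wild type replicate 2 was left out. Gnas stood at 0.74 with the deposited scaling and did not pass with arrays centred on their medians (adjusted p = 0.0767), and with probe sets averaged neither Pde8a (adjusted p = 0.087) nor Gnas (adjusted p = 0.278) did. Fshr, the receptor for follicle stimulating hormone, was dim at 8.5 to 56.5 and gave -0.73 (SE 0.49, adjusted p = 0.345).

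**Figure D3:**
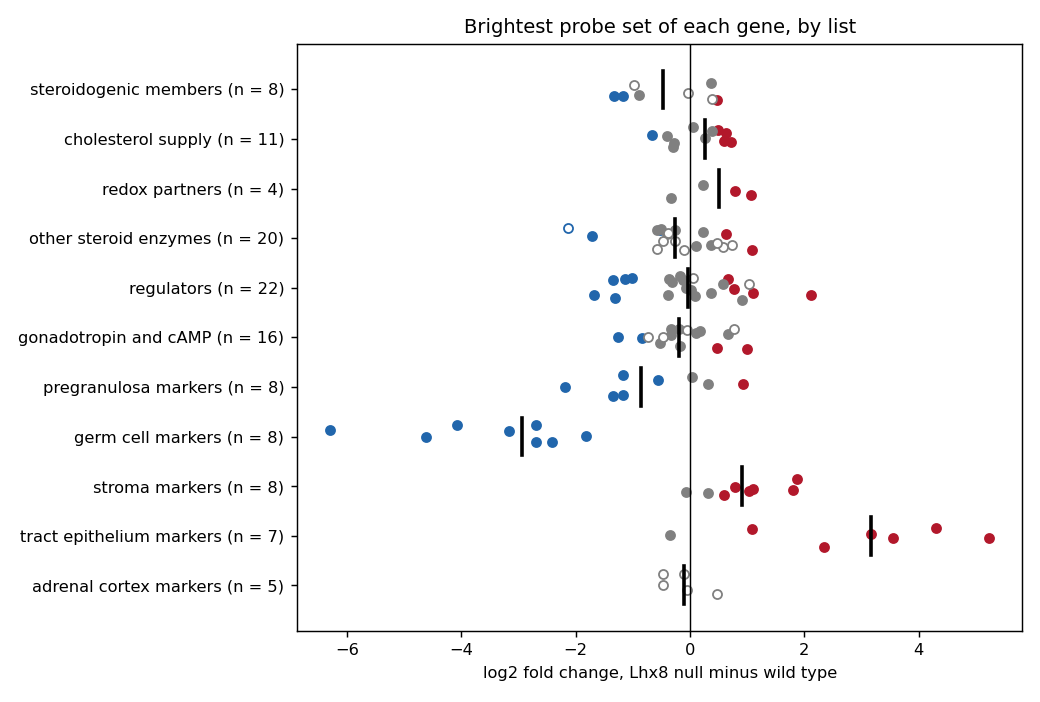
Log2 fold change (null minus wild type) of the brightest probe set of each gene, by list, from 3 null and 2 wild type arrays; blue and red points are past the threshold, open points are dim, vertical spread within a list has no meaning and black bars are list medians. The median of the members is -0.46, that of pregranulosa markers -0.87, of germ cell markers -2.94 and of tract epithelium markers 3.16.

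Markers of cells that could hold these transcripts were set beside the members. Of 8 pregranulosa markers 5 fell and 1 rose (median -0.87). Besides Foxl2, Runx1 fell by 2.18 (SE 0.26), Fst, the follistatin gene, by 1.17 (SE 0.13), Irx3 by 1.17 (SE 0.13) and Amhr2, the receptor gene for anti-Müllerian hormone, by 0.56 (SE 0.12). Lgr5 rose by 0.93 (SE 0.17), and Wnt4 (0.32, adjusted p = 0.41) and Rspo1 (0.03, adjusted p = 0.922) did not pass. With probe sets averaged Runx1 stood at -0.61 (adjusted p = 0.0862), Amhr2 at -0.38 (adjusted p = 0.0805) and Lgr5 at 0.45 (adjusted p = 0.197), without a call. The summed signal of the list was 12920 to 15630 on null arrays and 20430 to 23490 on wild type arrays. So 5 of the 8 markers moved the same way as Nr5a1, Hsd3b1 and Nr0b1, and their part in those falls was not tested. The calls of Amhr2 (all arrays but null replicate 1) and Lgr5 (either wild type array) were lost when single arrays were left out.

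Markers of the adrenal cortex, which lies near the ovary and shares most of the pathway, gave low readings. How well their probe sets detect adrenal RNA was not tested. Of 7 listed markers, 5 were measured (Cyp21a1, Cyp11b1, Cyp11b2, Mc2r and Mrap), all were dim, and the highest reading was 108.6. Their summed signal was 223.7 to 238 on null arrays and 189.6 to 250.8 on wild type arrays, so the groups overlapped. None passed in limma, and 0 had an unadjusted p below 0.05. Of 9 Leydig and theca markers 6 were measured, Cyp17a1 among them, and 5 of these were dim. The summed signal was 1380 to 1574 on null arrays and 2426 to 2444 on wild type arrays, most of it from Ptch1. Ptch1, the hedgehog receptor and target gene, fell by 0.78 (SE 0.12, adjusted p = 0.0028), from 2063.3 and 2074.8 to 1230.6, 1066.6 and 1155.8, and held with each array left out. Gli1, another hedgehog target, was dim and gave -0.32 (SE 0.31, adjusted p = 0.536).

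The genes whose 5-array profiles lay closest to the members that passed were found by distance among 10911 genes that were not dim. For Nr5a1 these were Jazf1, Zfp975 and Tex13b, at distances of 0.14, 0.14 and 0.19 on the log2 scale. For Hsd3b1 they were Ppfibp2, Wfdc1 and Ranbp9 (0.09, 0.10 and 0.11), and for Fdx1 Selenbp1, Uspl1 and Scand1 (0.04, 0.05 and 0.06). With 5 arrays in 2 groups, such likeness mostly repeats the group difference and is a description.

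**Figure D4:**
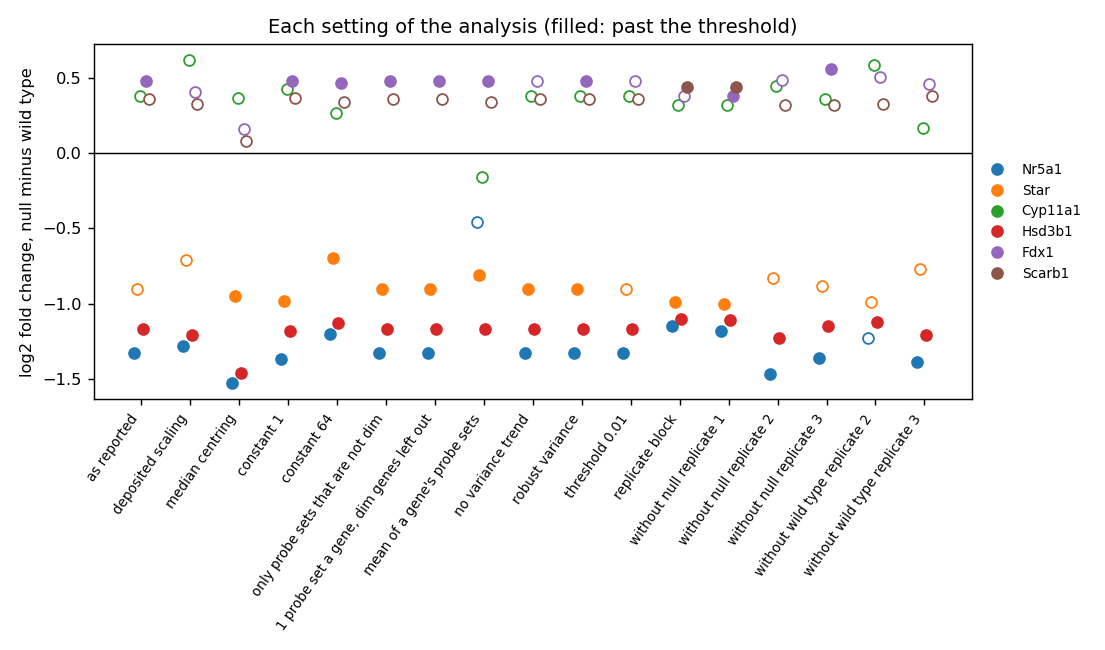
Log2 fold change (null minus wild type) of 6 members at their brightest probe set in the analysis as reported and in up to 16 other settings; filled points are past the threshold of that setting. Hsd3b1 is filled throughout, Nr5a1 is open with its probe sets averaged and without wild type replicate 2, and Star, Fdx1 and Scarb1 change between filled and open.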

How the data were processed

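Members and gene lists were chosen with earlier results of these data known. What the authors deposited is 1 linear intensity for each probe set in each pool. GCOS is named for the wild type arrays, per the submitters' processing notes, and no software for the null ones. The 2% trimmed mean was 500 on every array, so the authors' intensities had been scaled. No 2 arrays were copies (64 to 120 equal values between any pair), and correlations across probe sets were 0.96 to 0.974 within null, 0.97 within wild type and 0.905 to 0.931 between groups.

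Of 45101 probe sets 64 controls were left out. The probe table gave 1 gene symbol for 34945, several for 932 and none for 9160; 34754 were found in a GRCm38.p6 gene table, which changed 0 symbols. Signals were put on log2(signal + 16), quantile normalised and fitted with limma 3.58.1 (lmFit, eBayes with a variance trend) in R 4.3.3 over all probe sets; a test of 1 bright probe set a gene was an alternative. The dim cutoff is the 40th percentile of gene means. p-values measure the spread between pools, which may be technical, and 3 against 2 arrays limit precision. Steps were tested on simulated data with 3 null and 2 wild type arrays and 50 probe sets changed at each size. They recovered 0% of changes of 0.5 on the log2 scale, 22% of 1, 54% of 2 and 86% of 4. Far fewer probe sets were changed there than passed here, so these shares do not carry over to the members. Named genes are the members, Lhx8 and the 3 closest profiles. From each list come up to 4 genes with the smallest p, plus the rest of small counts. Hsd3b2, Hsd3b3, Hsd3b7, Fshr, Gata6 and Wt1 were added after their values were seen. Ddx4, Wnt4 and Rspo1 also lie outside the 4 smallest p of their lists. So do genes named because their call changed in another setting: Abca1, Acbd3, Prkar1a, Prkacb, Prkar2b, Hsd17b7, Nr4a1 and Nrip1. No detection calls were used. Other settings varied scaling, constant, filter, probe set choice, variance model, threshold, replicate block and each array left out. Figures used matplotlib 3.10.9 in Python 3.11.15.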

Additional observations from a re-analysis of the deposited data

How the results depend on the processing

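Over all 45037 probe sets 9466 passed (4811 higher, 4655 lower), or 21%. The count was 5216 of 10916 with 1 probe set a gene and dim genes left out, and 4741 of 18193 with a gene's probe sets averaged. Both are counts of genes, while the 21% is a share of probe sets. In the analysis as reported 5010 of 18193 genes passed by their brightest probe set. Of the 10916 genes not dim, 2261 were higher and 2026 lower. Over all probe sets it was 6059 without a variance trend, 4749 at a threshold of 0.01, and 3935 to 10028 with single arrays left out. Centring arrays on their medians gave 3396 higher and 6302 lower, so 35% in place of 50.8% of calls were higher. Of 15 member probe sets 4 passed, 2 with the deposited scaling and 2 at a threshold of 0.01, and 1 to 6 with single arrays left out. Of 8 member genes 3 passed, 1 (Hsd3b1) without wild type replicate 2 and 5 without null replicate 1. Of 73 pathway genes 25 passed, 13 without a variance trend, 13 at a threshold of 0.01, and 14 to 26 with single arrays left out. Over all 18193 genes 27.5% passed in the analysis as reported. Of 215 recomputed member values, 20 lost a call, 15 gained one and none reversed a call; of 1644 for other listed genes, 100 lost and 52 gained one, and 1 reversed (Creb1, -0.08). Among genes named above, Sp1, Creb1, Nr2f2, Hsd11b2, Cyp1b1, Hsd17b2, Pde8a, Gnas and Amhr2 also lost their calls without a variance trend. The cause of these shifts was not tested. Some settings also use fewer arrays or probe sets.

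Replicate numbers 2 and 3 occur in both groups, and the deviations of same-numbered arrays from their group means correlated at 0.0083 and 0.00782. The deviations of the 2 wild type arrays mirror each other, so these are not separate checks. The labels give only the number, and these correlations cannot settle whether the arrays were paired. With the replicate number as a block 9853 probe sets passed, as did 4 member probe sets and 4 member genes. Only null replicate 1 has the number 1, so the block takes that array out of the comparison of groups. Its results are thus not separate from those without null replicate 1 (Star at -0.99 and -1). With the block Fdx1 did not pass (adjusted p = 0.0511), and Star (adjusted p = 0.0427) and Scarb1 (adjusted p = 0.0476) did. The Scarb1 probe set 1455820_x_at lost its call (0.43, adjusted p = 0.0611). Of pathway genes 25 passed with the block, but not the same ones: Tspo (adjusted p = 0.0672), Npc2 (adjusted p = 0.067) and Gnas (adjusted p = 0.0515) lost their calls, and Hsd17b7, Nr4a1 and Nrip1 gained one. Dim probe sets limit Cyp11a1, Cyp17a1 and Hsd17b1, and the number of wild type pools limits all values.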
